A study of Mus musculus with 5 samples.

Results

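Transcripts of 10 genes of extracellular proteolysis were examined in LPS-stimulated bone marrow-derived macrophages (BMMs) cultured with or without semaphorin 3G (Sema3G). They were the matrix metalloproteinases Mmp8, Mmp9, Mmp12, Mmp13, Mmp14 and Mmp19, the tissue inhibitors of metalloproteinases Timp1, Timp2 and Timp3, and the sheddase Adam17. The genes were taken by symbol from the 24419 genes of the deposited table, and all 10 were among the 10088 genes that were tested, whose mean level was 1 CPM (the UMI count scaled to a common library total) or more. Bone marrow cells of C57BL/6 mice (C57BL6/J in the design text of the series) had been grown for 5 days with 50 ng/ml M-CSF and activated with 100 ng/ml LPS, and both groups shared these steps. The cells were then given PBS (n = 2 libraries, whose titles call them untreated) or 100 ng/ml Semaphorin 3G (n = 3 libraries) for 18 h. The comparison thus asks what the added protein preparation did to cells that already had LPS. The authors describe their recombinant Sema3G as Fc-tagged and purified from cell culture, while the control was PBS. Effects of the tag or the preparation therefore cannot be told apart from those of Sema3G. The labels do not say that the libraries came from separate cultures or animals, so the p-values measure the spread between these libraries, which may be technical.

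Matrix metalloproteinases are zinc-dependent enzymes that are made as inactive precursors and cleave collagen, elastin and other components of the extracellular matrix. TIMPs bind the active site of these enzymes and block it. Macrophages in inflamed joints are a known source of both, and ADAM17, which belongs to the related ADAM family and is inhibited by TIMP3, releases TNF and several receptors from the cell surface.

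The libraries held 1798469 to 2215855 unique molecular identifiers (UMIs, which mark single RNA molecules) in all. The listed genes took 75.6 to 77.6% of these UMIs with PBS and 65.9 to 71.3% with Sema3G, and the ribosomal RNA precursor gene Rn45s took 1.01 to 3.19% with PBS and 6.31 to 7.88% with Sema3G. The CPM are relative to all UMIs, and the median log2 fold change over all genes tested was -0.22, or -0.04 with scaling by TMM factors (library factors set so that most genes do not differ) and 0.04 with listed-gene CPM without Rn45s (UMIs relative to all listed genes except Rn45s), so the log2 fold change of each of the 10 genes is also given relative to the median. The macrophage label was checked against 9 markers, all of which were above 1 CPM on average, with summed levels of 10408 to 13131 CPM with PBS and 9576 to 10178 CPM with Sema3G, and Csf1r and Lyz2 at the top. All 7 markers of lymphoid cells were at 0. Of 6 dendritic cell markers Flt3, Itgae, Siglech and Xcr1 were at 0, and the sum, with Ccr7 and Zbtb46 as its only other genes, was at most 2.22 CPM. In bulk RNA, fewer cells that express a gene and less of its RNA per cell cannot be told apart.

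The genes lie on 7 chromosomes, and Mmp8, Mmp12 and Mmp13 are neighbours on chromosome 9 (GRCm38, GENCODE M21 annotation). Mmp13 spans chr9:7272514-7283331, Mmp12 chr9:7344381-7369499 and Mmp8 chr9:7558456-7568485, all on the plus strand. These 3 genes belong to a cluster of 10 Mmp genes within 427 kb, of which 5 had any UMI (Mmp1a, annotated there as a polymorphic pseudogene, had none). The other cluster members with UMIs were Mmp27, with 2 and 3 UMIs with PBS against 7, 2 and 0 with Sema3G, and Mmp3, with 1 UMI in Sema3G replicate 1. Outside the cluster, Mmp14 spans chr14:54431612-54445364, Mmp9 chr2:164940780-164955850, Mmp19 chr10:128790910-128800824, Timp1 chrX:20870166-20874735 and Timp3 chr10:86300372-86349506 on the plus strand. Timp2 (chr11:118301069-118355740) and Adam17 (chr12:21323509-21373632) are on the minus strand.

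Promoter sequences of RefSeq (GRCm38.p6, 250 bases before to 50 after a transcript start) were found for 8 of the 10 genes, and not for Mmp9 and Mmp19. The 4 below are shown because they stand for 2 kinds of start among these genes: Mmp12 and Mmp13 carry an AP-1 motif, the class of site through which Jun and Fos proteins act on several Mmp genes, while Mmp14 and Timp2 carry GC boxes, the letters bound by Sp1. Capitals mark the AP-1 match (TGANTCA) in the first pair and the GC box (GGGCGG) in the other, and all are written 5′ to 3′ on the strand of the gene. Mmp12 is the second of its 2 starts, at chr9:7347124-7347423 on the plus strand, Mmp13 is chr9:7272264-7272563 on the plus strand, Mmp14 is chr14:54431348-54431647 on the plus strand and Timp2 is chr11:118355362-118355661 on the minus strand.
Mmp12: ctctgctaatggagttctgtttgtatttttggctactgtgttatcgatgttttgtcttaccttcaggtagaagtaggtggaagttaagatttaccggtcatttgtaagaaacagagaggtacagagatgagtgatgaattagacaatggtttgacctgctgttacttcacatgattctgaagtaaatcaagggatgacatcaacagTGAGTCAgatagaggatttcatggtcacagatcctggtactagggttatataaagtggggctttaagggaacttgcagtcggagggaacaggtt
Mmp13: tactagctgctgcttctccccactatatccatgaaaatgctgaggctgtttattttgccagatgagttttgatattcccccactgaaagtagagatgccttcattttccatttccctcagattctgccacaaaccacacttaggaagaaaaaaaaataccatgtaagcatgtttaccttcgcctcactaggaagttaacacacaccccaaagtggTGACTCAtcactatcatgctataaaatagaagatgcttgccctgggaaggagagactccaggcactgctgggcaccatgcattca
Mmp14: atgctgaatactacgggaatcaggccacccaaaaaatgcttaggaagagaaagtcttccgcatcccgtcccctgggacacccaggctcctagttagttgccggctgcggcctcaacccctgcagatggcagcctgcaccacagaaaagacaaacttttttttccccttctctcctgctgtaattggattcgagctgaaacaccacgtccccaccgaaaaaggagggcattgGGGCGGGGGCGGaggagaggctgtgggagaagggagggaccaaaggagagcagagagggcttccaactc
Timp2: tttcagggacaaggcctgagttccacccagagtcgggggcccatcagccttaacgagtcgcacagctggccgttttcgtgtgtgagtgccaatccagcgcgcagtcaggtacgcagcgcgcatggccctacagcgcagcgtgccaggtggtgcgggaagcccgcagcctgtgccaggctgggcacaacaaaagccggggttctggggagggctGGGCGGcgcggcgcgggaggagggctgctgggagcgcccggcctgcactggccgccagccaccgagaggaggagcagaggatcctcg

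Both strands of each promoter were searched for AP-1 (TGANTCA), NF-kB (GGG, any pair of bases, TT, any base and CC in a run), CRE (TGACGTCA), the TATA box (TATAAA) and the GC box (GGGCGG). The AP-1 letters began 44 bases before the start in Mmp12 and 35 bases before it in Mmp13, were in no other entry of these genes, and were in 7.81% of all 32851 promoters. The TATA box, held by 13.6% of promoters, was in Mmp8, in the second start of Mmp12 and in Mmp13. GC boxes, held by 35.7% of promoters, were in Mmp14, where 2 stood side by side at 19 and 13 bases before the start, and in Timp1, Timp2, Timp3 and Adam17. No entry held the NF-kB letters (4.79% of promoters) or the CRE letters (1.79%). The promoters of Mmp8, Mmp12 and Mmp13 had 38.7 to 46.0% G and C, that of Mmp14 had 56.0% and those of the inhibitors and Adam17 had 55.0 to 70.0%, against a median of 52.7% over all promoters. A match describes letters only and is no measure of binding.

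The 10 genes covered a wide range of levels. The method counts 1 UMI for an RNA of any length, so CPM were compared between genes without division by length. Mmp8 and Mmp14 were the most abundant, at 614 ± 165 and 530 ± 8.58 CPM with PBS (SD, n = 2), and ranked at percentiles 98.7 and 98.4 of the mean CPM of all genes tested. Adam17 (383 ± 8.94 CPM) and Timp2 (223 ± 2.94 CPM) followed. Mmp9, Mmp19 and Mmp12 formed a middle group between 62.1 and 90.5 CPM in the PBS libraries, in which the order of Mmp9, Mmp19 and Mmp12 differed between libraries. Mmp13 was lower still at 11.1 ± 1.35 CPM, and Timp1 and Timp3 were near the limit of 3 UMIs, which corresponds to 1.35 to 1.67 CPM. Mmp8 and Mmp14 also differed in order between the PBS libraries, while Adam17, Timp2 and the middle group were separated by more than their spread with PBS. Any UMI was found for 10 of the 23 Mmp symbols, and of 4 Timp symbols Timp4 had none.

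**Figure D1:**
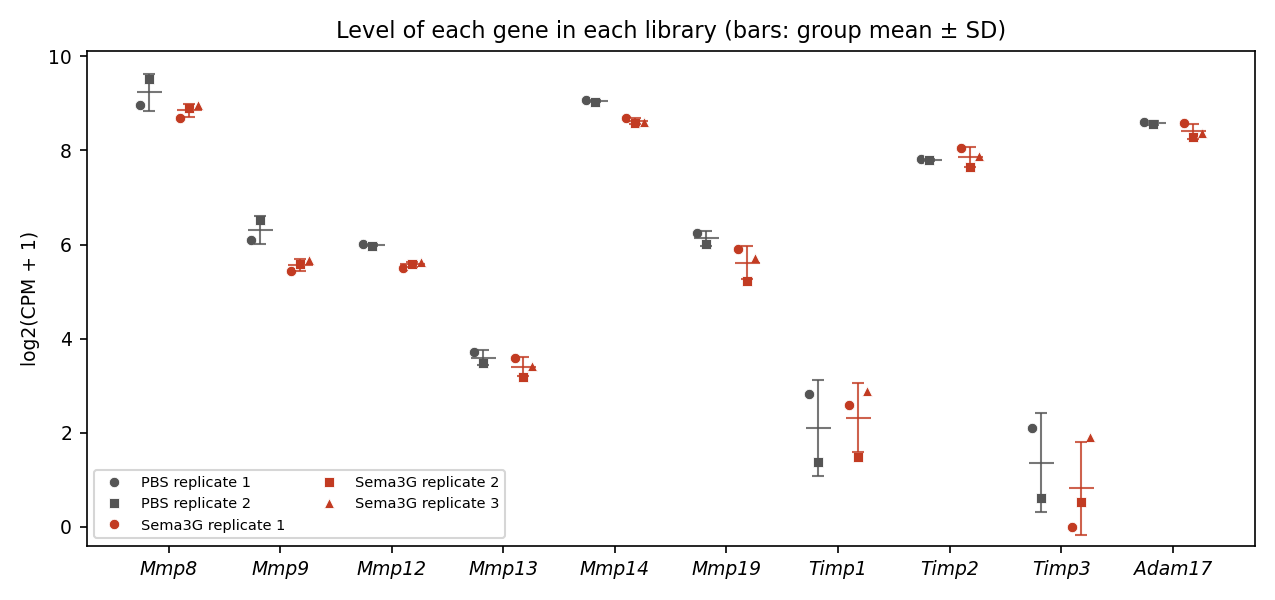
Levels of the 10 genes on a log2(CPM + 1) axis, with 1 symbol per library (gray, PBS; red, Sema3G) and horizontal and vertical bars for the group mean and SD of n = 2 and n = 3 libraries. The red points of Mmp9, Mmp12, Mmp14 and Mmp19 lie below both gray points, while those of the other 6 genes overlap with gray ones.

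None of the 10 genes passed an adjusted p of 0.05 in limma on log2(CPM + 1), where 1.8% of all genes tested did. At an unadjusted p below 0.05, 3 of the 10 were lower with Sema3G (Mmp9, Mmp14 and Mmp19), against 14.2% of all genes. On the recovered UMI counts, edgeR's quasi-likelihood test also called 0 of the 10, where it called 3.01% of all genes, with Mmp9 alone lower at an unadjusted p below 0.05, against 5.14% of all genes. DESeq2 called 0 of the 8 to which it gave an adjusted p (not Timp1 and Timp3), where it called 3.92% of the genes with one, and 1 of the 10 was lower at an unadjusted p below 0.05, against 1.76% of all genes. The Sema3G libraries were all below the lower PBS library in 4 of the 10 (Mmp9, Mmp12, Mmp14 and Mmp19), where 26.5% of all genes did, and above the higher one in 0 of the 10, where 11.9% of all genes did. Leaving out 1 library leaves fewer to overlap, so these counts can only stay or grow. Without PBS replicate 2, 7 of the 10 were lower in this way, against 50.2% of all genes, and without PBS replicate 1 it was 5 of the 10, against 37.9%. Without Sema3G replicate 1, 2 or 3 it was 6, 4 and 6 of the 10, against 42, 30.7 and 30% of all genes. The log2 fold change was negative for 8 of the 10, including all 6 Mmp genes, against 67.5% of all genes, and of the 6 Mmp13 was at 0.07 with listed-gene CPM without Rn45s and at 0.00 with DESeq2. Its median was -0.42 over the 6 Mmp genes, -0.40 over the 10 and -0.22 over all genes.

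Among the collagenases, which cut fibrillar collagen, Mmp8 is best known as the enzyme of neutrophil granules. Mmp8 had 498 and 731 CPM with PBS against 414, 475 and 498 CPM with Sema3G. PBS replicate 2 stood above the other 4 libraries, and PBS replicate 1 lay within 1 CPM of Sema3G replicate 3. Its log2 fold change was -0.39 (standard error 0.21, adjusted p = 0.287 from limma), or -0.16 relative to the median, and it was -0.66 without PBS replicate 1 and -0.11 without PBS replicate 2. Relative to the median of the same fit these were -0.53 and 0.19, so the sign against the median turned with the PBS library left out. With other scaling Mmp8 was at -0.18 (TMM factors) and -0.10 (listed-gene CPM without Rn45s). Between the PBS libraries the Mmp8 CPM differed 1.47-fold (exact binomial 95% interval 1.35 to 1.60, counting error only). Of 11 neutrophil markers in the table, among them Mmp8 itself, Cxcr2, Elane, Ngp and Retnlg were at 0 in every library, and the summed level was 739 to 1253 CPM with PBS and 636 to 819 CPM with Sema3G. Mmp8 makes up most of this sum in every library, so the sum largely follows Mmp8. Lcn2, the next most abundant of these markers and a partner of MMP9 in neutrophils, also had its highest count in PBS replicate 2, with 227 and 659 UMIs with PBS against 213, 467 and 322 with Sema3G. S100a8 did as well, at 206 and 309 UMIs with PBS against 183, 287 and 279 with Sema3G. Camp had 3 and 4 UMIs with PBS against 0, 2 and 3 with Sema3G, and S100a9 had 3 and 2 against 3, 4 and 4. Their part in the spread of Mmp8 was not tested.

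Mmp13, the main collagenase of rodents, was rare. It had 22 and 19 UMIs with PBS against 20, 18 and 21 UMIs with Sema3G, and the groups overlapped. Sema3G over PBS gave a log2 fold change of -0.19 (95% interval -0.88 to 0.50, adjusted p = 0.756 from limma), the least negative of the 6 Mmp genes and 0.03 relative to the median. It was -0.08 without PBS replicate 1, -0.09 without Sema3G replicate 2, -0.29 without Sema3G replicate 1 and -0.31 without PBS replicate 2. Differences within this interval were not detectable at this depth.

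Mmp9, the gelatinase that degrades denatured collagen and basement membrane collagen, had the lowest log2 fold change of the 6 Mmp genes with all libraries, though not without PBS replicate 2 (-0.53, against -0.63 for Mmp19). Its level was 67.6 and 90.5 CPM with PBS (123 and 169 UMIs) and 42.3, 47.4 and 49.8 CPM with Sema3G (76, 105 and 108 UMIs). The groups did not overlap, and Sema3G had a mean of 46.5 ± 3.85 CPM (SD, n = 3) against 79.0 ± 16.2 CPM (SD, n = 2), or 58.8% of the PBS mean. The log2 fold change was -0.74 (standard error 0.21, 95% interval -1.18 to -0.30, unadjusted p = 0.00237, adjusted p = 0.0804 from limma). It was -0.52 relative to the median (-0.82 without PBS replicate 1 and -0.24 without PBS replicate 2), and with other scaling it was -0.54 (TMM factors, limma adjusted p = 0.221) and -0.46 (listed-gene CPM without Rn45s, limma adjusted p = 0.298). The spread between the PBS libraries was wide for Mmp9 as well, at 1.34-fold (exact binomial 95% interval 1.05 to 1.70), and the log2 fold change ranged from -0.95 to -0.53 when 1 library was left out.

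Mmp12, the macrophage elastase that cleaves elastin, had 63.2 and 62.1 CPM with PBS against 44.5, 47.4 and 48.4 CPM with Sema3G. The PBS libraries were close to each other, and each Sema3G library lay below them. This gave a log2 fold change of -0.42 (standard error 0.20, 95% interval -0.84 to 0.0079, adjusted p = 0.245 from limma), and -0.19 relative to the median (-0.11 without Sema3G replicate 1). With other scaling it was -0.21 (TMM factors) and -0.13 (listed-gene CPM without Rn45s).

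Mmp14 encodes the membrane-anchored MT1-MMP, which activates proMMP2 in a complex with TIMP2 and cuts collagen at the cell surface. Its level was 536 and 524 CPM with PBS against 411, 380 and 389 CPM with Sema3G. The replicates were tight in both groups, with means of 530 ± 8.58 CPM (SD, n = 2) and 393 ± 16.3 CPM (SD, n = 3), and the means differed by more than the range within either group. The log2 fold change was -0.43 (standard error 0.18, 95% interval -0.81 to -0.046, unadjusted p = 0.0300, adjusted p = 0.194 from limma), and -0.20 relative to the median. It ranged from -0.46 to -0.40 when 1 library was left out. With other scaling it was -0.23 (TMM factors, limma unadjusted p = 0.172) and -0.14 (listed-gene CPM without Rn45s, limma unadjusted p = 0.396). Mmp2, the substrate of this activation, had 7 and 1 UMIs with PBS against 0, 1 and 3 with Sema3G.

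Mmp19, a secreted enzyme of basement membrane and other matrix substrates, had 74.7 and 63.7 CPM with PBS against 58.9, 36.6 and 51.2 CPM with Sema3G. Sema3G replicate 1 was the nearest to the PBS libraries and Sema3G replicate 2 the farthest. The log2 fold change was -0.52 (standard error 0.23, 95% interval -0.99 to -0.039, unadjusted p = 0.0355, adjusted p = 0.208 from limma), or -0.29 relative to the median (-0.12 without Sema3G replicate 2), and ranged from -0.66 to -0.32 when 1 library was left out. With other scaling it was -0.31 (TMM factors, limma unadjusted p = 0.150) and -0.23 (listed-gene CPM without Rn45s, limma unadjusted p = 0.293). The gene overlaps Tmem198b on the other strand, which had 9 to 17 UMIs, and the sources used here do not give the strand setting of the counting.

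Of 7 osteoclast markers, a lineage that also grows from bone marrow with M-CSF and makes Mmp9 and Mmp14, 3 were tested and all had negative log2 fold changes. Acp5 had 123 and 45 UMIs with PBS against 71, 44 and 38 with Sema3G (-0.73, limma adjusted p = 0.261), and Atp6v0d2 had 59 and 32 against 35, 35 and 30 (-0.52, limma adjusted p = 0.330). Both overlapped between the groups and were highest in PBS replicate 1. Ctsk had 7 and 9 UMIs with PBS against 5, 8 and 5 with Sema3G (-0.46, limma adjusted p = 0.558), was lower in CPM without overlap and was highest in PBS replicate 2, as Mmp9 was. Calcr and Ocstamp were at 0, and the summed level of the list was 46.0 to 107 CPM with PBS and 34.1 to 61.7 CPM with Sema3G. The part of these markers in the Mmp levels was not tested.

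**Figure D2:**
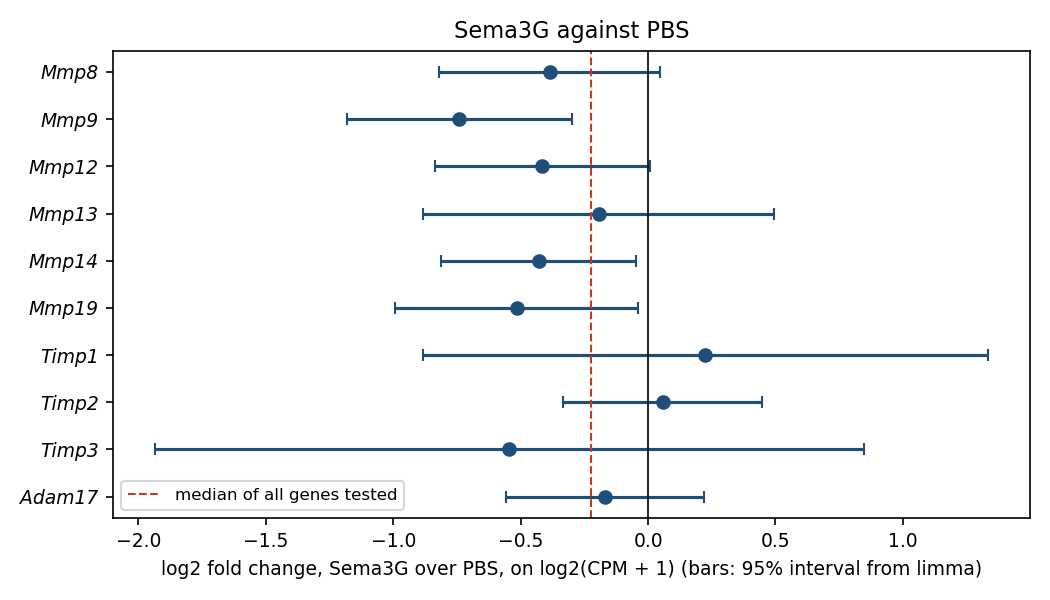
Log2 fold change of Sema3G over PBS on log2(CPM + 1) for each of the 10 genes, with the 95% interval from limma. The solid line is 0 and the dashed red line the median of all genes tested (-0.22). The intervals of Mmp9, Mmp14 and Mmp19 lie below 0, and of these only that of Mmp9 (-1.18 to -0.30) also lies below the dashed line.

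Timp2, the inhibitor that also takes part in proMMP2 activation, made up nearly all of the inhibitor transcripts, at 96.0 to 99.0% of the UMIs of Timp1, Timp2 and Timp3. Its level was 225 and 221 CPM with PBS against 265, 199 and 236 CPM with Sema3G. The Sema3G libraries lay on both sides of the PBS libraries. Its log2 fold change was 0.06 (standard error 0.19, 95% interval -0.34 to 0.45, adjusted p = 0.886 from limma), or 0.28 relative to the median. The gene overlaps Cep295nl on the same strand, which was not analysed here.

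Timp1, an inhibitor of most secreted MMPs, had 11 and 3 UMIs with PBS against 9, 4 and 14 with Sema3G. Timp3, which binds to the matrix and inhibits ADAM17, had 6 and 1 UMIs with PBS against 0, 1 and 6 with Sema3G. For both the groups overlapped, and the highest counts were in PBS replicate 1 and Sema3G replicate 3. Fold changes on the log2 scale were 0.22 (standard error 0.53) for Timp1 and -0.54 (standard error 0.66) for Timp3, and the limma adjusted p values were 0.832 and 0.653. Relative to the median they were 0.45 and -0.32. For Timp3 the value rested on the pseudocount, at -1.44 with a pseudocount of 0.1 and -0.19 with 5. Of 9 markers of fibroblasts or stromal cells, Sparc, Col1a2 and Col3a1 also had their highest counts in these libraries. Sparc had 40 and 11 UMIs with PBS against 16, 7 and 25 with Sema3G, and Col1a2 had 17 and 5 with PBS against 9, 4 and 18 with Sema3G. Other markers of the list had another order, with Dcn highest in Sema3G replicate 2 (12 UMIs), Postn in Sema3G replicate 1 alone (4 UMIs) and Lum at 0. The summed level was 16.6 to 50.0 CPM with PBS and 15.3 to 32.7 CPM with Sema3G, and the part of these markers in the levels of Timp1 and Timp3 was not tested. Timp1 lies inside Syn1 on the other strand, which had 5 to 17 UMIs.

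Adam17, the sheddase of TNF, had 389 and 376 CPM with PBS against 385, 311 and 328 CPM with Sema3G. Sema3G replicate 1 was within the PBS range and the other two were below it. Its log2 fold change was -0.17 (standard error 0.19, 95% interval -0.56 to 0.22, adjusted p = 0.608 from limma), or 0.05 relative to the median. It ranged from -0.26 to -0.11 when 1 library was left out. Its sign depended on the scaling, being 0.03 with TMM factors and 0.12 with listed-gene CPM without Rn45s.

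The balance of enzymes and inhibitors was described by ratios of UMIs within a library, which do not depend on the library total. The summed level of the 6 Mmp genes was 1251 and 1481 CPM with PBS against 983, 994 and 1046 CPM with Sema3G. That of the 3 Timp genes was 234 and 223 CPM with PBS against 270, 201 and 246 CPM with Sema3G. The ratio of Mmp to Timp UMIs was 5.35 and 6.65 with PBS against 3.64, 4.95 and 4.26 with Sema3G, without overlap between the groups. Its mean was 6.00 ± 0.922 (SD, n = 2) with PBS and 4.28 ± 0.654 (SD, n = 3) with Sema3G, a log2 difference of -0.49, with no test, as it is a score over chosen genes. Mmp8 and Mmp14 hold most of the Mmp UMIs and Timp2 most of the Timp UMIs, so the ratio describes these 3 genes. With the median Mmp gene over the median Timp gene, which is Timp1 with its few UMIs, the ratios were 11.8 and 48.0 with PBS against 10.3, 26.3 and 7.82 with Sema3G. These overlapped, and their log2 difference was -0.89 in all and 0.13 without PBS replicate 2.

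Each Mmp gene was also set against Timp2, a reference chosen after its values were seen. Mmp14 had 2.38 and 2.37 UMIs per Timp2 UMI with PBS against 1.55, 1.91 and 1.64 with Sema3G. Mmp9 had 0.301 and 0.410 with PBS against 0.160, 0.239 and 0.211 with Sema3G. A lower ratio with Sema3G without overlap was found for 5 of the 6 Mmp genes, Mmp13 among them, against 31.3% of all genes set against Timp2, and Mmp8 was the exception at 2.22 and 3.31 with PBS against 1.57, 2.39 and 2.11 with Sema3G. Timp2 itself was 0.28 above the median of all genes on the log2 scale, and the ratios share its counts and so are not independent of each other.

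**Figure D3:**
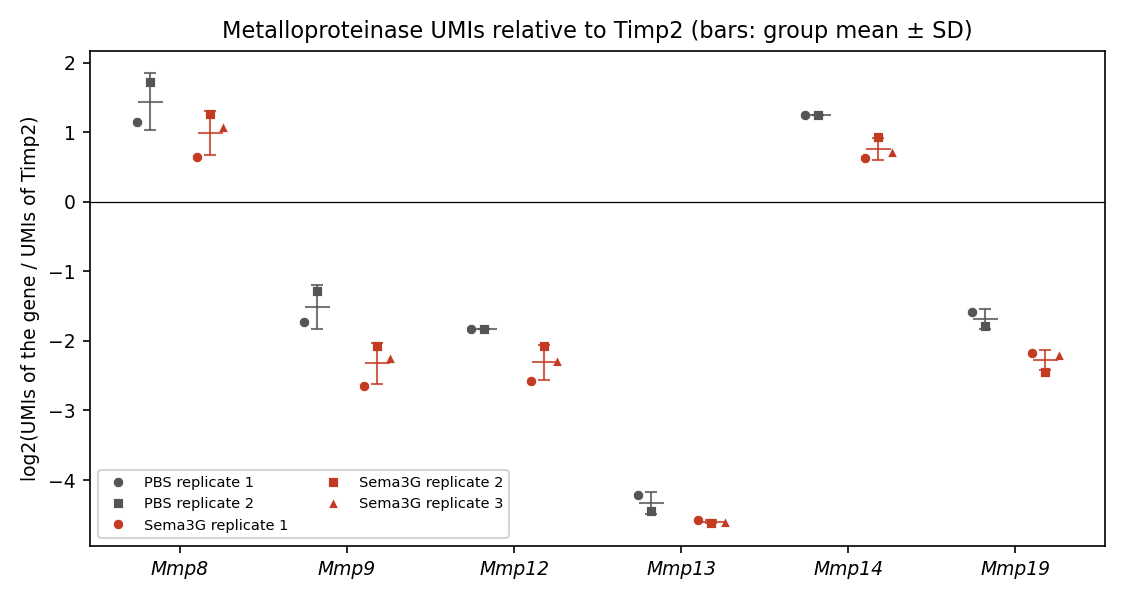
UMIs of each Mmp gene divided by the UMIs of Timp2 in the same library, on a log2 axis, with 1 symbol per library (gray, PBS; red, Sema3G) and bars for the group mean and SD. All red points are below both gray points for Mmp9, Mmp12, Mmp13, Mmp14 and Mmp19, and Sema3G replicate 2 of Mmp8 (2.39) lies above PBS replicate 1 (2.22).

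The make-up of the Mmp transcripts was given by the share of each gene. Mmp14 took 42.8 and 35.4% of the UMIs of the 6 Mmp genes with PBS and 41.9, 38.2 and 37.2% with Sema3G, and Mmp8 took 39.8 and 49.3% with PBS and 42.2, 47.8 and 47.6% with Sema3G. Both shares overlapped between the groups. Mmp9 took 5.40% (Wilson 95% interval 4.55 to 6.41%) and 6.11% (5.28 to 7.06%) with PBS and 4.30% (3.45 to 5.35%), 4.77% (3.95 to 5.74%) and 4.76% (3.96 to 5.71%) with Sema3G. The Mmp9 shares did not overlap between the groups, but the Mmp9 intervals, which cover counting error only, did. The shares of Mmp12, Mmp13 and Mmp19 overlapped, so Mmp9 was the only one of the 6 without overlap. No share over all genes is at hand for this measure, and it was not tested.

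The 10 genes were read against 87 other genes of pericellular proteolysis in 7 lists, of which 38 were at 0 and 41 could be tested. limma called 0 of the 41 (1.8% of all genes), and 12 had an unadjusted p below 0.05 in either direction (21.1% of all genes). Il6ra alone was called by edgeR's quasi-likelihood test (3.01% of all genes), by DESeq2 (3.92%) and by limma with TMM factors (3.22%), and Il6ra and Notch1 were called with listed-gene CPM without Rn45s (4.94%). The fit with a replicate block, which has 1 residual degree of freedom, called Furin, Il6ra and Lrp1, where it called 573 of all 10088 genes. Over the 41 genes the median log2 fold change was -0.33, and 34 were negative, against 67.5% of all genes. Without overlap 17 were lower and 3 higher, against 26.5% and 11.9% of all genes. The counts of the single lists below are read against the same shares. The smallest adjusted p was that of Furin, the convertase that removes the prodomain of ADAM17 and MMP14, with 326 and 403 UMIs with PBS against 258, 243 and 231 with Sema3G (log2 fold change -0.72, limma adjusted p = 0.0671). Furin was lower without overlap.

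Of the 5 genes of ADAM17 maturation and traffic that were tested, 3 were lower without overlap (Furin, Rhbdf2 and Frmd8), with a median of -0.60 over the list. Frmd8, which holds the ADAM17 complex with iRhoms at the cell surface, had 59.9 CPM with PBS and 38.3 CPM with Sema3G on average (log2 fold change -0.68, limma adjusted p = 0.142). Of 12 tested substrates of ADAM17, 4 were lower and 3 higher without overlap. Il6ra, the receptor chain whose shed form carries IL-6, had 129 and 151 UMIs with PBS against 218, 250 and 258 with Sema3G (log2 fold change 0.63, limma adjusted p = 0.0890). Notch1 was also higher without overlap, at 0.48 (limma adjusted p = 0.176). The 2 most abundant substrates, Csf1r and Tnfrsf1b, had log2 fold changes of -0.33 and -0.26 (limma adjusted p = 0.483 and 0.441).

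Of the other ADAM and ADAMTS proteases, 6 of 20 were tested and 2 were lower without overlap. These were Adam8, at 522 CPM with PBS and 388 CPM with Sema3G (log2 fold change -0.42, limma adjusted p = 0.211), and Adam15, at 284 and 203 CPM (log2 fold change -0.49, limma adjusted p = 0.161). In the plasminogen system, whose product plasmin activates several MMP precursors, 4 of 8 were lower without overlap, and the most abundant were the plasminogen-binding pair Anxa2 (-0.43, limma adjusted p = 0.230) and S100a10 (-0.31, limma adjusted p = 0.327). Among 7 tested genes of docking and clearance, 4 were lower without overlap. The most abundant of these 7 were Thbs1 (0.24, limma adjusted p = 0.620) and Cd44 (-0.27, limma adjusted p = 0.394), which binds MMP9 and MMP14 at the cell surface. Lrp1, the endocytic receptor that clears MMP and TIMP complexes, had a log2 fold change of -0.54 (limma adjusted p = 0.115). The other Mmp genes gave 3 tested genes with a median of -0.15, the most abundant of them being Mmp27 and Mmp11 (1 and 4 UMIs with PBS against 5, 2 and 1 with Sema3G), and the 4 other inhibitors (Timp4, Reck, A2m and Tfpi2) were at 0.

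**Figure D4:**
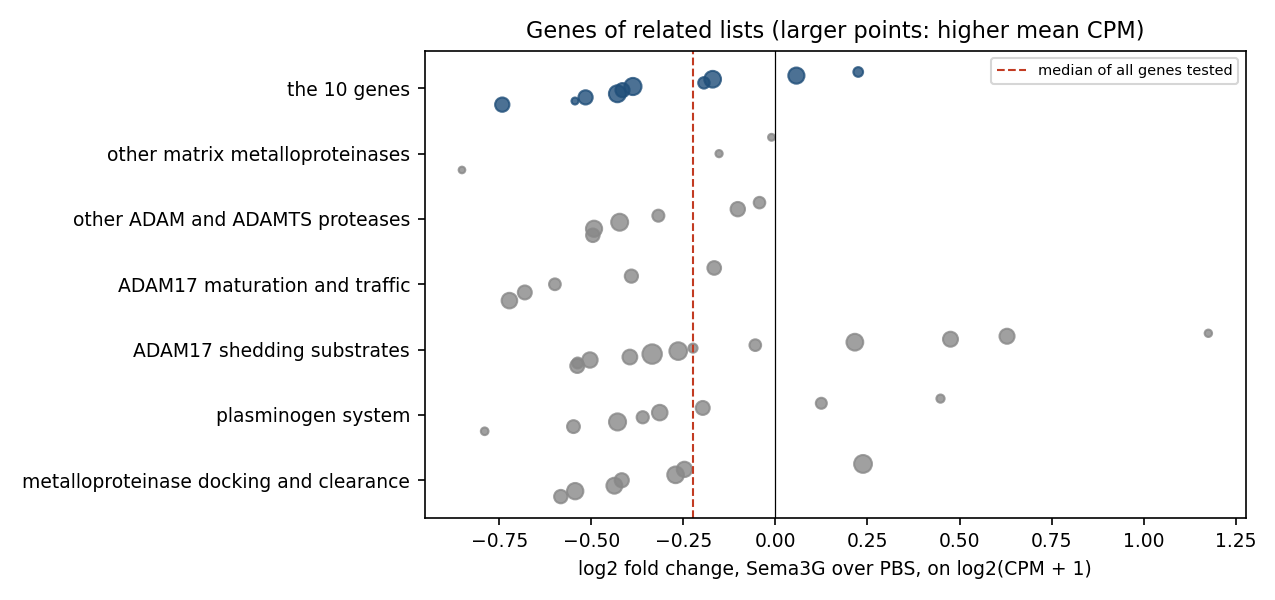
Log2 fold change of Sema3G over PBS for the 10 genes (blue, top row) and for the tested genes of 6 of the related lists (gray; the other inhibitors were at 0 and have no points), with larger points for a higher mean CPM and the dashed red line at the median of all genes tested. Most points are left of 0, as 67.5% of all genes are, and none passed the adjusted p in limma.

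The 10 genes were also followed over 14 alternative settings. Mmp9, Mmp12, Mmp14 and Mmp19 had negative log2 fold changes, and were below the median of all genes, under all of them. For Mmp9 the range was -0.95 to -0.46 with adjusted p between 0.00599 and 0.422 (limma, edgeR or DESeq2), and the smallest adjusted p came from the fit with the replicate block, which has 1 residual degree of freedom and alone passed the threshold. Mmp8 was negative under all 14 and ranged from -0.66 to -0.10. Timp2 was positive in 13 of 14, with a range of -0.04 to 0.35.

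**Figure D5:**
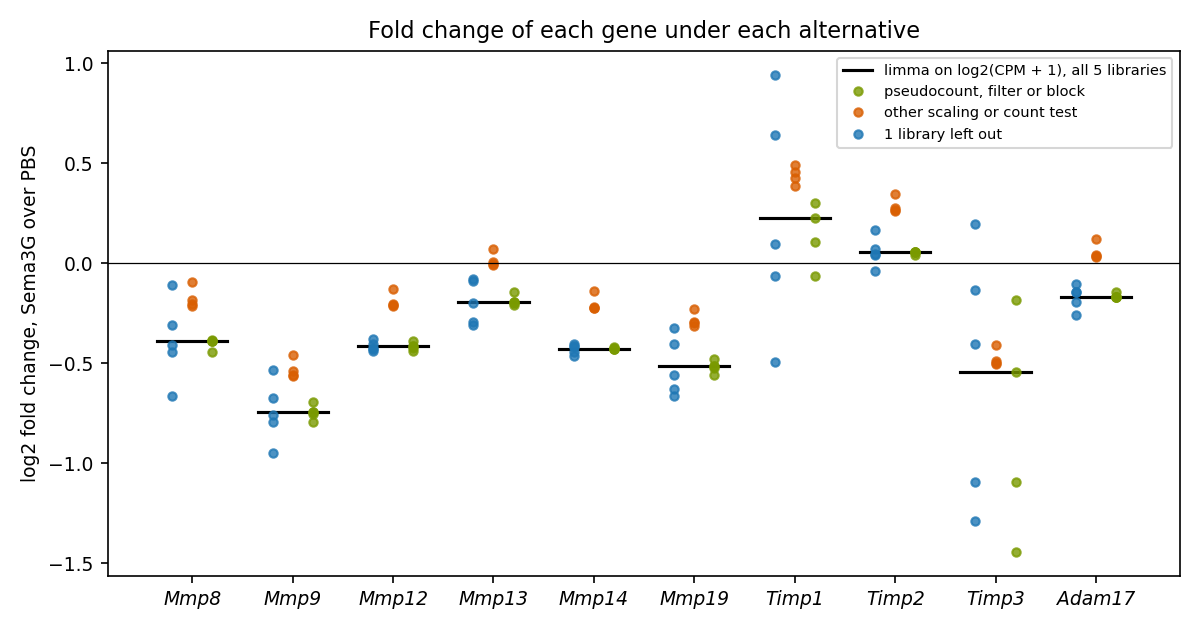
Log2 fold change of each of the 10 genes under the 14 alternatives, colored by kind (blue, 1 library left out; orange, other scaling or a count test; green, pseudocount, filter or replicate block), with the black line at the value from limma on log2(CPM + 1) with all libraries. The points of Mmp9 stay between -0.95 and -0.46, and those of Timp1 and Timp3 spread the most and cross 0.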

How the data were processed

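RNA from 5 samples was made into 3′ end libraries with UMIs (QuantSeq FWD kit), and the authors mapped reads to mm10, counted UMIs with Strand NGS and normalized the data with EdgeR (edgeR 3.12 in the submitters' processing notes). The sources used here do not give the gene annotation, the filters and the strand setting. The authors deposited CPM values per gene and sample, with the p-values, q-values and ranks of their own comparison, which were not used. Dividing each library by its smallest step turned the CPM back into UMI counts, and 100% of them were whole within 0.01. For low counts 3 UMIs correspond to 1.35 to 1.67 CPM. The exact binomial and Wilson intervals cover counting error only, while the limma intervals of fold changes rest on the spread between libraries. A spreadsheet had turned 27 symbols into dates.

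The model was limma (3.58.1, in R 4.3.3) on log2(CPM + 1) with a trend of variance on level, for 10088 genes whose mean was 1 CPM or more. The pseudocount of 1 understates fold changes of low genes. Benjamini-Hochberg adjustment was over all genes tested. Alternatives were edgeR 4.0.16 and DESeq2 1.42.0, both fitted to the UMI counts, and other pseudocounts (0.1 and 5), filters, scalings (TMM factors, and listed-gene CPM, the share of UMIs on listed genes without Rn45s), a replicate block and each library left out in turn. The fits were also run on simulated counts, with changes larger than those of the 10 genes, balanced in direction and without a shared shift between the groups. This does not show how well changes of the size seen here are detected. Sema3G replicates 2 and 3 were the most similar pair (chi-square per degree of freedom 1.77 over 7918 genes, against 6.57 to 29.6 for the other pairs). This exceeds sampling noise, but that does not show that they came from separate cultures. All libraries were counted separately. If both came from the same culture, n = 3 overstates the replication and the p-values may be too small. Gene positions came from GENCODE M21 and promoters from RefSeq. The genes and lists were chosen with earlier results of these data known. Named are the 10 genes and, of each list, the 2 with the highest mean CPM and any past the adjusted p of 0.05. Marker genes at 0 are named too. Il6ra, Notch1, Rhbdf2, Lrp1, Mmp1a, Mmp2, Mmp3, Col3a1, Dcn, Postn, Ctsk, Camp, S100a8, S100a9 and the overlapping genes were chosen after their values were seen.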

Additional observations from a re-analysis of the deposited data

How the results depend on the processing

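Of 138 values of the 10 genes under 14 alternatives, 124 kept their direction and their side of the threshold, 2 kept their direction with no adjusted p (Timp1 and Timp3 with DESeq2), 11 turned direction and 1 passed the threshold. With the replicate block 1 of the 10 was called, Mmp9 (log2 fold change -0.79, limma adjusted p = 0.00599, 1 residual degree of freedom). In that fit Sema3G replicate 3 has a block of its own and adds nothing to the fold changes. The same fit also called Furin, Il6ra and Lrp1 of the 41 related genes tested, where it called 573 of all 10088 genes. Deviations of same-numbered libraries correlated at 0.173 and 0.111. Only 2 numbers are shared, and the deviations of the 2 PBS libraries mirror each other, so whether the numbers pair the samples cannot be judged. Over all genes 182 were called (160 higher, 22 lower), against 21 with no filter (0 higher, 21 lower), 325 with TMM factors (322 higher), 498 with listed-gene CPM without Rn45s (496 higher), 304 with edgeR's quasi-likelihood test (301 higher), 573 with the replicate block (298 higher, 275 lower), and from 27 when Sema3G replicate 2 was left out to 710 (270 higher, 440 lower) when Sema3G replicate 1 was, including 99 without PBS replicate 1 and 32 without Sema3G replicate 3. The cause was not tested. The log2 fold change of Mmp13 was 0.07 with listed-gene CPM without Rn45s and 0.00 with DESeq2, and that of Adam17 was 0.03 (TMM factors), 0.12 (listed-gene CPM without Rn45s), 0.04 (edgeR) and 0.04 (DESeq2). That of Timp1 was -0.06 with the replicate block and -0.49 to 0.94 with 1 library left out, where Timp2 ranged from -0.04 to 0.17 and Timp3 from -1.29 to 0.20. Timp3 was at -1.44 with a pseudocount of 0.1, -0.19 with 5 and -1.09 with the replicate block. The number of genes without overlap ranged from 4 to 7 with 1 library left out (7 without PBS replicate 2, where 50.2% of all genes did not overlap in this direction, and 6 without Sema3G replicate 1 or 3, where 42 and 30% did not). The log2 difference of the ratio was -0.89 with medians over the genes, where the groups overlapped, and with medians it was 0.13 without PBS replicate 2. A filter of 5 CPM left out Timp1 and Timp3. Where 1 PBS library is left, it is assumed to vary like the others.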
